A study of Mus musculus with 15 samples.

Results

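Transcripts of 9 marker genes of the B lineage were followed through RNA sequencing of sorted aortic macrophages. The members were the rows of the count table with the symbols Cd79a, Cd79b, Ms4a1, Pax5 and Cd22, read as 5 mature B cell genes, and Jchain, Mzb1, Xbp1 and Sdc1, read as 4 plasma cell genes. They are 9 of 47729 annotated features, and each symbol matched 1 row. All cells were sorted as F4/80+ CD64+ macrophages from aortas of Apoe-/- mice, whose genotype tag reads Apoe dko, after 4 weeks of high fat diet (called WD in the protocol). The libraries labelled Olfr2+ and Olfr2- differ by the sort on the odorant receptor Olfr2. The aortas of 4 female mice were pooled, a sort held 100 to 200 cells, and the sorts are described as technical replicates. Both groups therefore share genotype, diet and sort gate, and no library of wild-type mice or of B cells was among those analysed.

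B cells carry an antigen receptor made of a membrane immunoglobulin and the Cd79a-Cd79b heterodimer, which passes the signal into the cell. Pax5 is the transcription factor that holds B cell identity, Ms4a1 encodes the surface protein CD20, and Cd22 encodes a sialic acid binding co-receptor that dampens receptor signalling. When a B cell becomes a plasma cell, Pax5 is shut off, Xbp1 expands the secretory pathway, and Jchain and Mzb1 serve the assembly and secretion of antibody, while Sdc1 (CD138) appears on the surface. Xbp1 and Sdc1 are also expressed outside the B lineage, Xbp1 in many secretory or stressed cells and Sdc1 in epithelia. B cells are known from the adventitia of atherosclerotic arteries.

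The table held 15 columns, which belong to 3 numbered samples in each group. Olfr2- sample 1 had 1 column, samples 3 and 4 had 2 each, Olfr2+ samples 2 and 3 had 4 each, and Olfr2+ sample 4 had 2. Total counts were 30.5 to 53.2 M (M, 1000000 counts) in the 5 Olfr2- columns. Olfr2+ columns 3D, 4A and 4B held 29.9 to 37.6 M, and the other 7 Olfr2+ columns held 76.0 to 95.6 M. The share of counts on protein-coding genes was 94.6 to 97.5% in those 7 deeper columns and 78.5 to 85.6% in the 8 others. Because the 7 columns stand apart and carry 1 label only, each result is given with and without them. The Olfr2 transcript went against the labels, with 76, 34 and 35 counts in the Olfr2- samples 1, 3 and 4 and 1, 9 and 8 counts in the Olfr2+ samples 2, 3 and 4 (edgeR quasi-likelihood log2 fold change -3.55 ± 1.39 SE, adjusted p = 0.104), so groups are named by their labels throughout. The sort markers were present in every column: Adgre1, which encodes F4/80, ranged from 9.48 to 312 CPM (counts per 1000000 counts of the column), and Fcgr1, which encodes CD64, from 0.544 to 103 CPM. The labels do not tie the sample numbers to separate animals or cultures, and every p-value below measures the spread between samples, which may be technical.

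Jchain, the joining chain of IgM and IgA polymers, was by far the most abundant member. In the Olfr2- columns 1A, 3A, 3B, 4A and 4B it had 4919, 6464, 1279, 5886 and 2899 CPM of the column total. In the shallower Olfr2+ columns 3D, 4A and 4B it had 1852, 3786 and 6722 CPM. Every one of these 8 columns placed Jchain between rank 8 and rank 118 of all genes. In the 7 deeper Olfr2+ columns its level was 16.0 CPM at the lowest, 46.1 at the median and 156 at the highest, at ranks 1188 to 6439. No column of the 8 overlapped with any of the 7, and the lowest of the 8 was 8.19-fold above the highest of the 7. Olfr2+ sample 3 spans both sets of columns: its column 3C had 59.9 CPM and its column 3D had 1852 CPM, a 30.9-fold difference between columns with the same sample number and the same file-style name in the description. Per kilobase of exons, Jchain averaged 1704 CPM in Olfr2- columns, 1637 in the shallower Olfr2+ columns and 22.0 in the deeper ones. Xbp1 averaged 189, 90.3 and 101 CPM per kilobase in the same order.

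**Figure D1:**
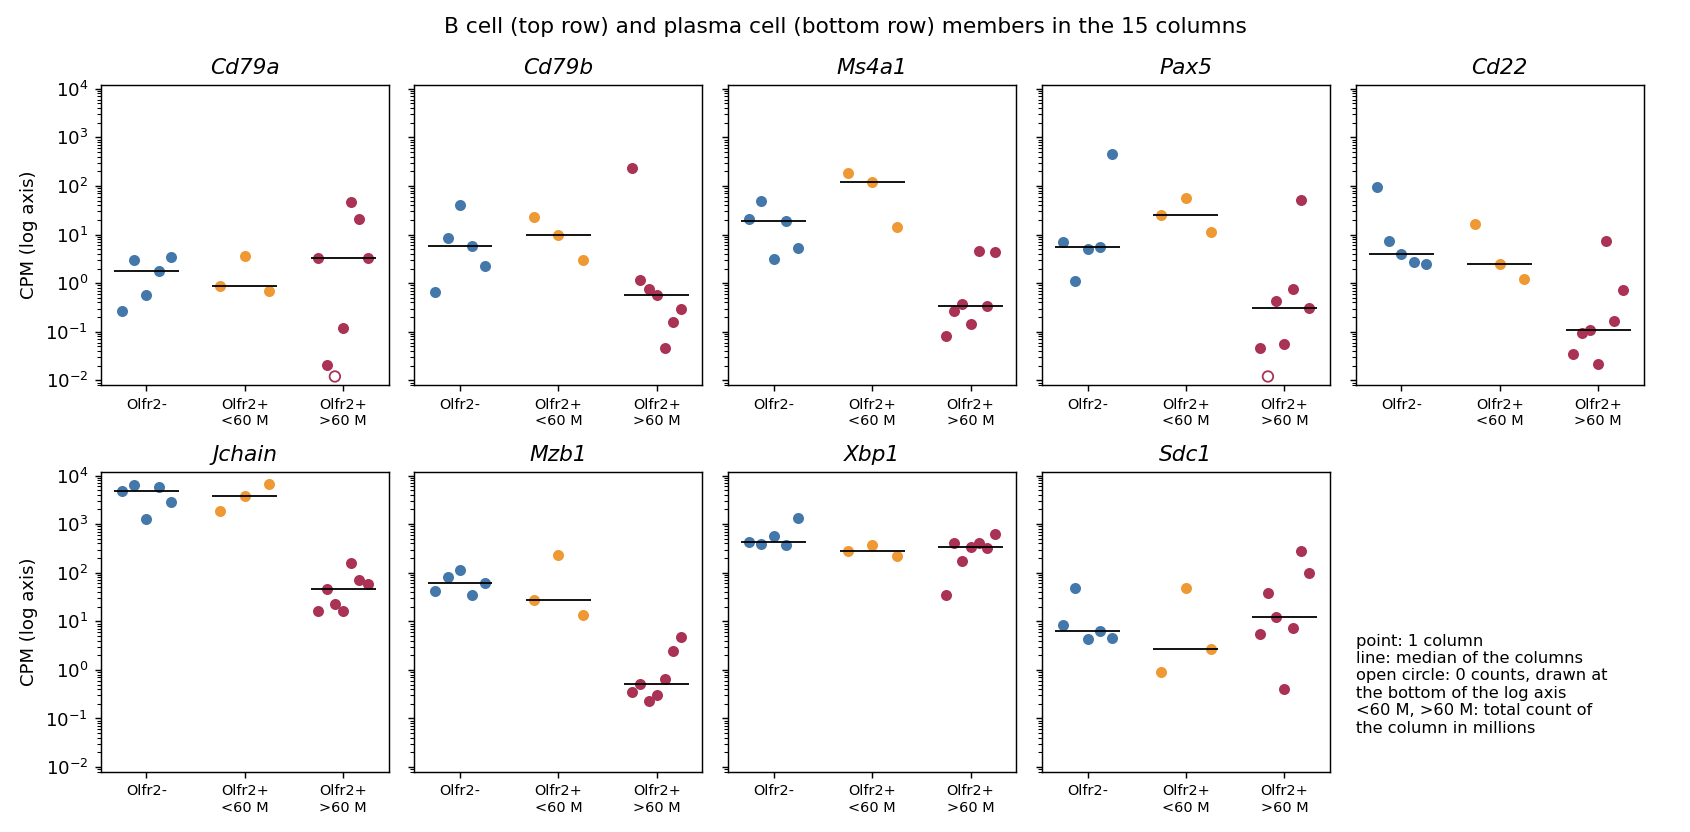
Level of each member in CPM of the column total (log axis) in the 5 Olfr2- columns, the 3 Olfr2+ columns below 60 M counts and the 7 above, with 1 point per column and a line at the median. Jchain and Mzb1 separate the 7 deeper columns from all others, while Xbp1 lies between 35.0 and 1311 CPM throughout and Pax5, Cd22 and Cd79b each hold a point far above the rest.

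Mzb1, a chaperone of the endoplasmic reticulum that assists antibody assembly, followed the same division at a lower level. It had 42.4, 80.8, 113, 35.5 and 62.0 CPM in Olfr2- columns 1A, 3A, 3B, 4A and 4B. The shallower Olfr2+ columns 3D, 4A and 4B held 27.7, 226 and 13.4 CPM. The deeper Olfr2+ columns ranged from 0.228 to 4.74 CPM with a median of 0.523, so again the 8 columns did not overlap with the 7. Jchain and Mzb1 were the only 2 of the 9 members for which all columns below 60 M counts lay above all columns beyond it, a pattern shown by 2.33% of the 8746 genes with a mean of at least 10 CPM.

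Xbp1 and Sdc1 did not share that division. Xbp1, the transcription factor of the unfolded protein response, had 429, 381, 581, 373 and 1311 CPM in Olfr2- columns 1A, 3A, 3B, 4A and 4B. It had 284, 379 and 217 CPM in Olfr2+ columns 3D, 4A and 4B, and 35.0 to 614 CPM with a median of 331 in the deeper columns, so all 3 ranges overlapped. Sdc1, a heparan sulfate proteoglycan, had 8.46, 48.4, 4.30, 6.29 and 4.49 CPM in the Olfr2- columns. It stood at 0.886, 48.6 and 2.71 CPM in Olfr2+ columns 3D, 4A and 4B, and at 0.410 to 279 CPM with a median of 12.0 in the deeper columns. The highest Sdc1 value, 279 CPM in Olfr2+ column 3B, and the lowest shallow one, 0.886 CPM in column 3D, came from the same numbered sample.

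Upstream sequence was matched for 6 of the 9 members (Cd79a, Pax5, Cd22, Jchain, Xbp1 and Sdc1) in RefSeq promoter windows of build GRCm38.p6. No window was available for Cd79b and Ms4a1, and none was used for Mzb1, whose chromosome was left out of the member search. The 250 bases before the annotated start are shown for Jchain and Xbp1, the pair of abundant plasma cell genes that moved apart, and for Cd79a as a mature B cell gene. They lie at chr5:88527898-88528147 on the minus strand for Jchain, chr11:5520391-5520640 on the plus strand for Xbp1 and chr7:24897247-24897496 on the plus strand for Cd79a. Each is written 5′ to 3′ and ends at the base before the start site, with capitals marking any match to 3 motifs searched on both strands.
Jchain: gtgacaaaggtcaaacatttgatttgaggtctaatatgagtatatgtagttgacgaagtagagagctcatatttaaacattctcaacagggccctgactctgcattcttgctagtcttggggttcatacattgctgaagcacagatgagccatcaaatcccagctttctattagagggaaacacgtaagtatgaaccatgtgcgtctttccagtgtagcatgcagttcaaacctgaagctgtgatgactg
Xbp1: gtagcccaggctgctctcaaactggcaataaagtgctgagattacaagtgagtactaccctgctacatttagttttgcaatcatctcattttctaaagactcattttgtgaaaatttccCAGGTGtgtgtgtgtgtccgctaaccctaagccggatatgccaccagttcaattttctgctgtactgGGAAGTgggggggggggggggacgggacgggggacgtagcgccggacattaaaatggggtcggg
Cd79a: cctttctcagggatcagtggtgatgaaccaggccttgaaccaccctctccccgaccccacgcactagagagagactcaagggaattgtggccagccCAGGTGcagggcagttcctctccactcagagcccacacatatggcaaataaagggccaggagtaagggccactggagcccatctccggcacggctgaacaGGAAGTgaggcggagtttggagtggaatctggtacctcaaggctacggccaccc
The octamer ATGCAAAT (reverse ATTTGCAT), known from immunoglobulin promoters, was in none of the 6 windows and in 1.60% of all 32851 promoter windows of that length. The letters GGAAGT (reverse ACTTCC), a core bound by ETS factors, began at base -54 of Cd79a and base -64 of Xbp1, counted from the start site, and occurred in 19.7% of all windows. The E-box CAGGTG (reverse CACCTG) began at base -154 of Cd79a, -131 of Xbp1 and -245 of Cd22, and occurred in 17.2% of all windows. The Jchain window held no match to the 3 motifs. These are letter matches only, and no binding was measured.

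The 5 mature B cell genes were present at low levels and unevenly. Cd79a, the Ig-alpha chain, had 0.262, 3.04, 0.566, 1.79 and 3.43 CPM in Olfr2- columns 1A, 3A, 3B, 4A and 4B, and 0.886, 3.70 and 0.703 CPM in Olfr2+ columns 3D, 4A and 4B. In the deeper Olfr2+ columns it ran from 0 counts in column 2C, which allows up to 0.0326 CPM at 3 counts, to 46.2 CPM in column 3A, with a median of 3.22. Its partner Cd79b, the Ig-beta chain, had 0.656, 8.59, 40.9, 5.78 and 2.21 CPM in the Olfr2- columns and 23.1, 9.90 and 2.98 CPM in the shallower Olfr2+ columns. Cd79b reached 229 CPM in Olfr2+ column 2A, against a range of 0.0467 to 1.15 CPM in the other 6 deeper columns. The 2 chains of the heterodimer were thus high in different columns: where Cd79b stood at 229 CPM, Cd79a stood at 3.22, and where Cd79a stood at 46.2 CPM, Cd79b stood at 0.0467.

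Ms4a1 was the mature B cell gene that came closest to the Jchain pattern. It had 21.0, 50.1, 3.14, 18.7 and 5.40 CPM in Olfr2- columns 1A, 3A, 3B, 4A and 4B, and 186, 120 and 14.6 CPM in Olfr2+ columns 3D, 4A and 4B. In the deeper columns it lay between 0.0815 and 4.63 CPM with a median of 0.337, below all 3 shallower Olfr2+ columns and overlapping with Olfr2- column 3B alone. Pax5 had 6.99, 1.11, 4.96, 5.50 and 454 CPM in the Olfr2- columns, 25.6, 57.1 and 11.4 CPM in the shallower Olfr2+ columns, and 0 to 52.0 CPM with a median of 0.303 in the deeper ones. Its count of 0 was in Olfr2+ column 2B, which allows up to 0.0314 CPM. Cd22 had 97.0, 7.44, 3.99, 2.7 and 2.49 CPM in the Olfr2- columns and 16.1, 2.53 and 1.20 CPM in the shallower Olfr2+ columns. In the deeper columns Cd22 ranged from 0.0222 to 7.26 CPM with a median of 0.109. The high values of Pax5 and Cd22 were single columns, 4B and 1A of Olfr2-.

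The share of a gene in its single highest column was then compared with that of genes of like level. The highest of the 15 columns held 73.2% of the summed CPM of Pax5, 70.3% of Cd79b, 68.4% of Cd22, 52.6% of Cd79a and 43.3% of Ms4a1. The share was 49.4% for Sdc1 and 37.1% for Mzb1, but 21.0% for Xbp1 and 19.7% for Jchain. The median over the 8746 genes with a mean of at least 10 CPM was 28.7%, and this median falls with the level. It was 46.0% over genes of 1 to 10 CPM, the level of Cd79a and Cd22 at means of 5.86 and 9.46 CPM, and 33.3% over genes of 10 to 50 CPM, the level of the other 3 mature B cell genes, Mzb1 and Sdc1. It was 20.6% over genes of 100 to 1000 CPM, the level of Xbp1, and 15.5% over genes of 1000 CPM or more, the level of Jchain. Every member's share was thus above the median of its own level, by the least for Xbp1. Repeat columns of 1 numbered sample also differed. Over the 5 samples with repeats, Cd79b ranged from 2.61-fold in Olfr2- sample 4 to 495-fold in Olfr2+ sample 3, and Jchain from 1.78-fold in Olfr2+ sample 4 to 30.9-fold in Olfr2+ sample 3. In Olfr2+ sample 2, whose 4 columns are all deep, Cd79b ranged 398-fold and Jchain 2.88-fold, while in Olfr2- sample 3 Cd79b ranged 4.76-fold and Jchain 5.05-fold.

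**Figure D2:**
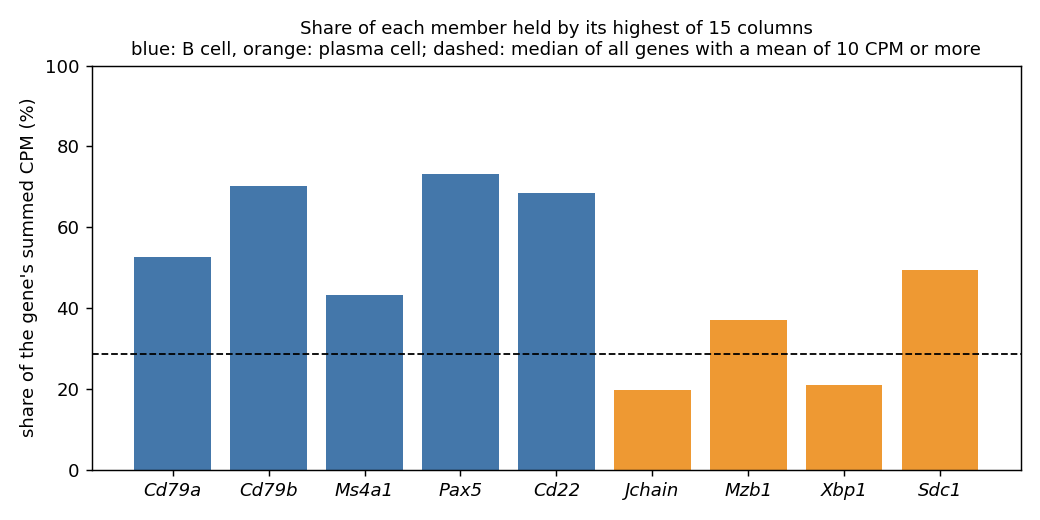
Share of each member's CPM, summed over the 15 columns, that lies in its highest column (bars, %), with the median of all genes of at least 10 CPM as a dashed line at 28.7%. All 5 mature B cell genes lie above the line and Jchain and Xbp1 below it, though genes as abundant as these have lower medians, 15.5% and 20.6%.

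Olfr2+ was first compared with Olfr2- over all columns, the contrast the study was built on, with counts summed per numbered sample and 3 samples a group. None of the 9 members passed the test (edgeR quasi-likelihood, Benjamini-Hochberg adjusted p under 0.05), against a background of 1.58% of the 24362 genes tested. At an unadjusted p under 0.05 stood 1 member, Sdc1, and 7821 of all genes (32.1%). DESeq2 called 0 of the 5 members to which it gave an adjusted p (none for Cd79a, Cd79b, Jchain and Mzb1), beside 20.7% of 31189 genes, and limma-voom called 0 of the 9 and 0% of all genes. Of the 385 genes called, 70.9% were higher in Olfr2+, and 21.7% of the calls were higher when column totals replaced TMM (trimmed mean of M values) factors. That change of scaling shifted the median log2 estimate over the genes tested by -1.12. Below 60 M counts and between the Olfr2+ column sets, described further on, it shifted the median by -0.83 and -0.53.

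With TMM-scaled CPM as mean ± SD over 3 samples, Jchain was 2121 ± 3246 in Olfr2+ and 3133 ± 224 in Olfr2- (log2 fold change -0.56 ± 0.89 SE, adjusted p = 0.645 by edgeR). The estimate was -3.13 ± 0.97 with limma-voom (adjusted p = 0.106), and without Olfr2+ sample 4 it was -3.64 by edgeR (adjusted p = 0.0527). The Olfr2+ samples 2, 3 and 4 had 52.8, 448 and 5862 TMM-scaled CPM of Jchain, a span wider than the Olfr2- range of 2977 to 3389. On column totals they had 25.6, 316 and 5087 CPM against 4523 to 4919. Sample 2 consists of deeper columns only and sample 4 of shallower ones only, and the cause of the span was not tested. Cd79a had the largest estimate at 3.35 ± 1.68 (adjusted p = 0.164), with 11.6 ± 16.3 CPM in Olfr2+ and 1.13 ± 0.844 in Olfr2-, and without Olfr2+ sample 3, which holds column 3A, its estimate was 0.94. Cd79b followed at 2.74 ± 1.54 (adjusted p = 0.202), and without Olfr2+ sample 2, which holds column 2A, its estimate was -0.028. Ms4a1 stood at 1.41 ± 1.40, Mzb1 at 0.35 and Xbp1 at 0.39 ± 0.82. Pax5 at -1.01 ± 1.50 and Cd22 at -2.89 ± 1.65 had estimates on the other side of 0, and without Olfr2- sample 4, which holds column 4B, Pax5 was at 2.98. Without Olfr2- sample 1, which is column 1A, Cd22 was at -0.22.

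Sdc1 was the 1 member whose groups did not overlap, a pattern of higher values shown by 13.5% of all genes tested. Its TMM-scaled levels were 30.0, 155 and 32.6 CPM in Olfr2+ samples 2, 3 and 4, and 5.12, 23.9 and 3.64 CPM in Olfr2- samples 1, 3 and 4 (log2 fold change 2.73 ± 1.31, adjusted p = 0.151 by edgeR). On column totals the groups overlapped, with 14.5, 109 and 28.3 CPM against 8.46, 31.9 and 5.51 CPM.

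When the 7 deeper columns were left out, 2 Olfr2+ samples remained against 3 Olfr2- samples. None of the 9 members passed the edgeR test, and the background was 0% of the 29989 genes tested, 3127 of them (10.4%), Ms4a1 alone among the members, with an unadjusted p under 0.05. Jchain was 4988 ± 3531 CPM in Olfr2+ and 3755 ± 544 in Olfr2- (log2 fold change 0.41 ± 0.54, adjusted p = 0.801 by edgeR), and the estimate was -0.43 on column totals. Ms4a1 had the largest estimate, 3.28 ± 1.27 (adjusted p = 0.441), with 250 and 108 CPM in Olfr2+ samples 3 and 4 against 13.7, 30.9 and 10.6 CPM in Olfr2- samples 1, 3 and 4. It was the 1 member whose groups did not overlap, where 9.28% of all genes were higher without overlap. DESeq2 called Ms4a1 higher (log2 fold change 3.40, adjusted p = 0.0212) and no other of the 8 members it gave an adjusted p (none for Pax5), beside 7.08% of 13960 genes called higher by that tool. By single columns the groups did overlap, as Olfr2+ column 4B held 14.6 CPM and Olfr2- column 3A held 50.1 CPM. The other 7 members had estimates between -0.95 (Cd22) and 1.39 (Cd79b), each smaller in size than its SE.

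**Figure D3:**
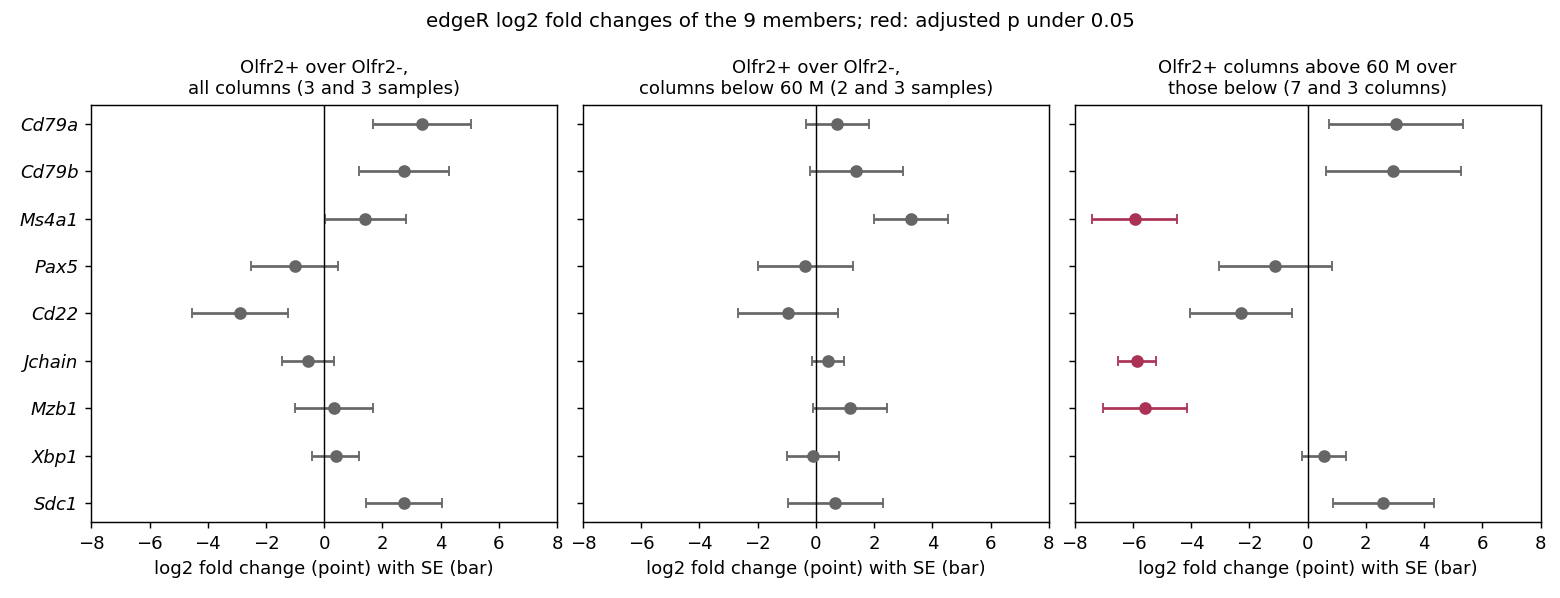
edgeR log2 fold changes of the 9 members (points) with their SE (bars) for Olfr2+ over Olfr2- in all columns, in columns below 60 M counts, and for deeper over shallower columns within Olfr2+. Red marks an adjusted p under 0.05, reached in the last panel alone by Jchain, Mzb1 and Ms4a1, all with negative values.

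Within the Olfr2+ label the 7 deeper columns were compared with the 3 shallower ones, a comparison added after the column sets had been seen. The columns were taken as samples although they come from 3 numbered samples, so these p-values are too small. Here 3 of the 9 members were lower in the deeper columns and none was higher, against 3.81% of 17922 genes called lower and 3.02% called higher. Jchain changed by -5.85 ± 0.66 on the log2 scale (adjusted p = 3.84e-05 by edgeR), Ms4a1 by -5.94 ± 1.46 (adjusted p = 0.0187) and Mzb1 by -5.57 ± 1.44 (adjusted p = 0.0234). All 3 also showed no overlap between the sets, as did 10.9% of all genes in the lower direction. Without Olfr2+ sample 3 or without sample 4, Jchain alone was called (adjusted p = 0.0384 without sample 4, where the shallower set is column 3D alone, assumed to vary like the others), and without sample 2 Mzb1 missed the threshold. Xbp1 had an estimate of 0.57 ± 0.75 and Sdc1 of 2.61 ± 1.75, neither of which passed the test. Cd79a at 3.04 ± 2.31, Cd79b at 2.94 ± 2.32, Pax5 at -1.10 ± 1.95 and Cd22 at -2.28 ± 1.75 did not pass either, and Cd79b turned to -5.89 without sample 2.

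Immunoglobulin constant genes, the products that Jchain and Mzb1 act on, differed in the same direction between the Olfr2+ column sets. In the same comparison 8 of the 10 tested were lower in the deeper Olfr2+ columns, with a median log2 fold change of -6.12 beside 0.70 over all genes. Igkc, the kappa light chain, fell by 6.34 ± 0.53 (adjusted p = 5.30e-07 by edgeR), from 24889 to 39601 CPM in the shallower Olfr2+ columns to 90.3 to 997 CPM in the deeper ones. The heavy chains were lower too on the log2 scale, Ighm of IgM by -3.78 ± 0.73, Igha of IgA by -6.33 ± 0.96 and Ighg2b of IgG2b by -5.92 ± 1.00. The summed constant genes reached 23544 to 47758 CPM in Olfr2- columns, 37602 to 60706 in the shallower Olfr2+ columns and 239 to 5388 in the deeper ones. Jchain amounted to 4.92 to 21.6 CPM per 100 CPM of these genes in the 8 shallower columns and to 2.90 to 10.04 in the deeper ones. Within the 8 shallower columns log2 Jchain and the log2 sum had a Pearson correlation of 0.58, and within the 7 deeper ones of 0.93. For Mzb1 and the same sum the Pearson correlations were -0.20 and 0.31. Spearman rank correlations with the sum were 0.62 and 0.82 for Jchain, and -0.05 and 0.86 for Mzb1. Mzb1 thus did not follow these genes within the shallower set, and within the deeper set the answer depended on the measure. These are descriptions over columns, several of which share a numbered sample.

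**Figure D4:**
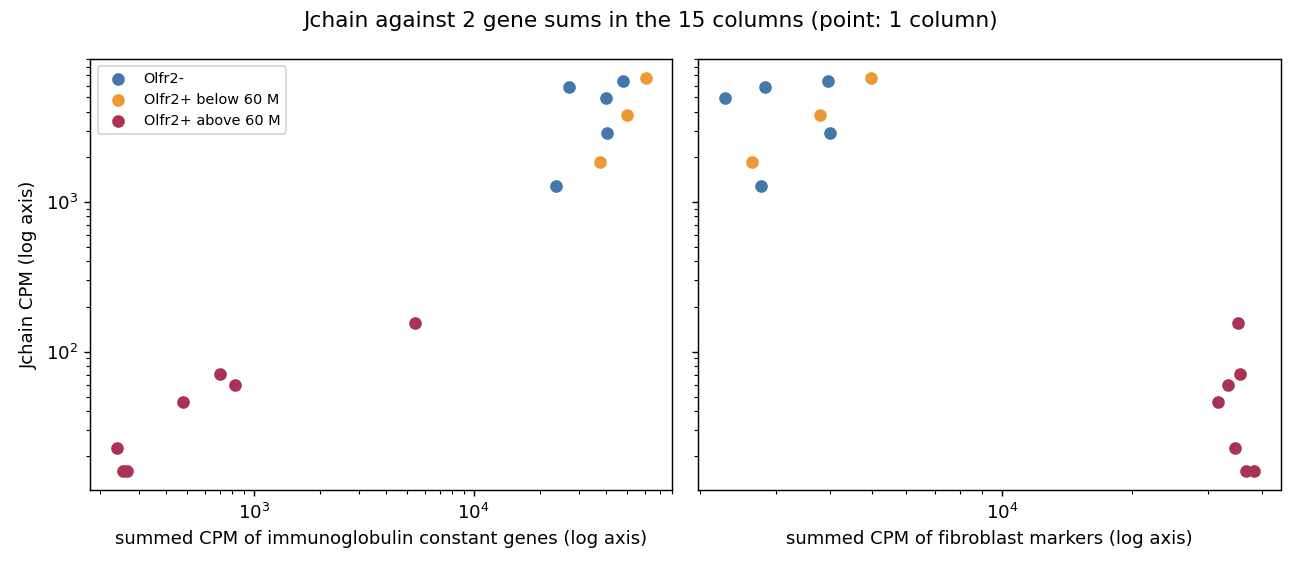
Jchain level against the summed level of 11 immunoglobulin constant genes (left) and of 10 fibroblast markers (right), in CPM on log axes, with 1 point per column. The 7 deeper Olfr2+ columns lie at 16.0 to 156 CPM of Jchain and at 31781 to 38427 CPM of fibroblast markers, apart from the 8 others in both panels.

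Other plasma cell genes were followed in that comparison too, where 3.81% of 17922 genes were called lower and 3.02% higher. Of 10 further transcription and surface genes, 1 was lower in the deeper columns, Tnfrsf17, the survival receptor BCMA, at -7.57 ± 1.89 (adjusted p = 0.0199 by edgeR), none was higher, and 2 of the 10 estimates were above 0. The abundant members of that list, Zbtb20 at 1.63 ± 0.71, Ly6c2 at -0.96 ± 1.08, Slamf7 at -0.57 ± 1.29 and Cd38 at -3.81 ± 1.52, did not pass. Of 16 secretory pathway genes, 1 was lower, Derl3, which takes part in the disposal of misfolded proteins, at -5.44 ± 1.65 (adjusted p = 0.0486). The abundant chaperones Hsp90b1 at 0.26 ± 0.53 and Hspa5 at 1.11 ± 0.54 did not pass, nor did Spcs2 at 1.15 ± 0.84 and Edem1 at 0.52 ± 1.00. Of these 16 estimates 10 were above 0. The list medians were -1.72 and 0.47, beside 0.70 over all genes.

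Of 22 further mature B cell genes, 21 were tested in that comparison and 3 were lower, among them the complement receptor Cr2 at -8.52 ± 1.90 (adjusted p = 0.0143 by edgeR) and Fcrla at -5.66 ± 1.64 (adjusted p = 0.0402). Cr2 lay at 0.0188 to 11.4 CPM in Olfr2- columns, 5.70 to 78.2 in the shallower Olfr2+ columns and 0 to 0.263 in the deeper ones. The most abundant genes of that list, Ebf1 at 1.62 ± 1.11, Cd37 at -1.67 ± 1.37, Cd180 at -0.48 ± 1.39 and Siglecg at 0.76 ± 1.88, did not pass. None of 15 receptor signalling genes passed, and their median was -0.18; Ptpn6, Inpp5d, Prkcb and Lyn, which act in macrophages too, had estimates of 0.24, -0.42, -1.96 and -0.18. Of 5 tested germinal centre genes, Gcsam was lower at -6.37 ± 1.80 (adjusted p = 0.0365), while Fas, Bcl6 and S1pr2 did not pass. Precursor genes stood low in most columns, Rag1 at no more than 3.94 CPM, Igll1 at no more than 2.11 and Dntt at no more than 17.8, and Il7r was between 1.44 and 364 CPM.

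Between Olfr2+ and Olfr2- no gene of these B lineage lists passed the edgeR test. At an unadjusted p under 0.05 were 15 of the 92 tested over all columns and 14 of the 95 tested below 60 M counts, members included, beside 32.1% and 10.4% of all genes. The lists were not alike in this. Immunoglobulin constant genes gave 2 of 10 over all columns and 6 of 11 below 60 M counts. Below 60 M counts each other B lineage list gave 2 or fewer. Over all columns the median log2 fold changes were 1.41 for the 5 B cell members, 0.37 for the 4 plasma cell members and 0.24 for all genes. In the columns below 60 M counts they were 0.73, 0.54 and -0.43. Immunoglobulin constant genes had medians of 0.19 and 1.00 in the same order, further mature B cell genes -0.15 and 0.10, receptor signalling genes 1.24 and 0.95, further plasma cell genes 1.77 and 1.67, and secretory genes 1.32 and 0.93. Germinal centre genes had 0.88 and 1.96, and precursor genes -2.23 and -0.75.

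Fibroblast and macrophage markers differed as well, and between the Olfr2+ column sets in the direction opposite to Jchain. Over all columns 9 of 10 fibroblast markers, such as the proteoglycan Dcn at 4.09 ± 0.69 (adjusted p = 0.0181 by edgeR), and 4 of 12 macrophage markers, such as the complement chain C1qb at 5.18 ± 1.19 (adjusted p = 0.0382), were higher in Olfr2+. Between the Olfr2+ column sets 8 of 10 fibroblast markers and 4 of 12 macrophage markers were higher in the deeper columns. Summed fibroblast markers were at 2281 to 4002 CPM in Olfr2- columns, 2638 to 4988 in the shallower Olfr2+ columns and 31781 to 38427 in the deeper ones. Summed macrophage markers were at 1837 to 8708, 2824 to 4475 and 7847 to 15775 CPM. In the columns below 60 M counts none of either list passed. The part of these differences, of depth and of the protein-coding share in the Jchain, Mzb1 and Ms4a1 results was not tested, and fewer cells of a type cannot be told apart from less RNA per cell in such bulk samples.

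Plasmacytoid dendritic cells, which share some transcripts with the B lineage, were followed through 9 markers. Their sum was 533 to 1143 CPM in Olfr2- columns, 459 to 976 in the shallower Olfr2+ columns and 39.3 to 748 in the deeper ones, and Tcf4 and Irf8, with up to 753 and 525 CPM, made up much of it. Of the defining markers, Siglech had at most 6.76 CPM, Ccr9 at most 26.2, and Cox6a2 was at 0 in 14 of 15 columns with at most 0.131 CPM. Of the 9 markers, 7, 8 and 7 were tested in the 3 comparisons and none passed. None of 10 T cell markers passed either, with medians of -0.51, 0.25 and -2.76 in the 3 comparisons, and none of 8 epithelial and mesothelial markers passed, with medians of -0.18, -0.89 and -0.59. Krt8, an epithelial keratin, reached 57.7 CPM in the deeper Olfr2+ columns and at most 2.99 CPM elsewhere. This was not a trait of the deeper set. The summed 8 markers had 29.4 and 67.0 CPM in deeper columns 2B and 2D, but a median of 0.662 over the 7 deeper columns. Their medians were 10.8 CPM in Olfr2- columns and 3.78 in the shallower Olfr2+ columns.

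The members varied together only in part. On log2(CPM + 1), the 10 pairs of mature B cell genes had Pearson correlations of -0.51 to 0.42 with a median of -0.02 over the 8 shallower columns, and of -0.41 to 0.81 with a median of -0.07 over the 7 deeper ones. The 6 pairs of plasma cell genes ran from -0.37 to 0.70 with a median of 0.23, and from 0.35 to 0.77 with a median of 0.51. Cd79a and Cd79b, products of which pair on the cell surface, had Pearson correlations of 0.00 and -0.11, and Jchain and Mzb1 had -0.32 and 0.48. By Spearman rank correlation the first pair had 0.10 and -0.75, and the second pair -0.38 and 0.75. The values over the deeper columns thus depended on the measure. These values describe 8 and 7 columns, several of which share a numbered sample, and the 8 carry both labels.

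Over all 15 columns, whose 2 depth sets enter each value, the genes most like the summed plasma cell members among 8739 were Basp1 (Pearson r = 0.94), Rps9, Igkc, Rpl38-ps2, Rpl41 and Rps27rt (r = 0.92). Basp1 averaged 282 CPM in Olfr2- columns, 168 in the shallower Olfr2+ columns and 7.45 in the deeper ones. Those most like the summed mature B cell members were Topbp1 (r = 0.84), Foxn2, Plxnc1, Chil3, Kdm7a and Fli1 (r = 0.78), none of them an immunoglobulin gene or a member of the mature B cell list. Single genes led either sum, so likeness to it need not be likeness to the members jointly. Pax5 held 454 of 468 CPM in Olfr2- column 4B and Cd79b 229 of 233 in Olfr2+ column 2A. Of the plasma cell sum, Jchain held 6464 of 6974 CPM in Olfr2- column 3A and Xbp1 614 of 777 in Olfr2+ column 3C. Topbp1 averaged 64.4, 27.9 and 28.4 CPM in the same 3 sets. Rpl38-ps2 is a processed pseudogene and Rps27rt a near copy of a ribosomal protein gene, so counts of both are uncertain.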

How the data were processed

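RNA of 15 libraries of sorted aortic macrophages was amplified by Smart-Seq2 (18 PCR cycles, then 9 more), without molecular identifiers, per the labels' protocols. The authors deposited raw whole-number read counts in 1 table of 47729 features. Tools named in the submitters' processing notes are DRAGEN, DESeq2 1.34 and STAR 2.7.1, with build GRCm39. Of the feature identifiers, 98.9% are in GENCODE M21 without the version and 81.9% with it, so no coordinates were taken from the table. Members, gene lists and the division at 60 M counts were chosen with earlier results of these data known.

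Columns were summed by the number in the title, 3 samples a group, with a letter read as a repeat. No pair of columns agreed within sampling noise (lowest chi-square per degree of freedom 573). Counts were tested with edgeR 4.0.16 (R 4.3.3): filterByExpr, TMM factors, quasi-likelihood F test and Benjamini-Hochberg adjustment over all genes, threshold 0.05. Estimates are printed with their SE, and summed sample totals ran from 30.5 to 364 M counts (M, 1000000). For edgeR the SE was derived from the test, as the size of the estimate divided by the square root of F. CPM uses column totals unless called TMM-scaled, and logarithms of CPM use a pseudocount of 1. Intervals and zero limits cover counting error only. Alternatives were DESeq2 1.42.0, limma 3.58.1 with voom, column totals, other filters, other sample units, the replicate block and leaving out each sample. Exon lengths came from GENCODE M21, and 14 gene lists were used, with Tent5c found as Fam46c by its identifier. The genes named are the 9 members, Olfr2, up to 4 genes of each list by mean CPM, every list gene that passed (1 is not reported here), and the 6 genes most like each member sum; Adgre1, Fcgr1, Siglech, Ccr9 and Cox6a2 were added to check cell types.

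On simulated counts with 50 genes at each size, the comparison over all columns recovered 0, 0, 23 and 40 genes changed by 1, 3, 5 and 7 on the log2 scale. Below 60 M counts 0, 0, 4 and 17 were recovered, and between the Olfr2+ column sets 0, 5, 24 and 41. The last simulation drew columns as independent, although several share a numbered sample. The replicate numbers 3 and 4 occur in both groups. Deviations from the group means correlated at 0.01 and -0.07 for same-numbered samples, and at -0.15 and 0.05 for differently numbered ones. Because the Olfr2+ samples differ in their share of deeper columns, these values cannot decide whether the numbers are pairs. The main tests did not take them as pairs.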

Additional observations from a re-analysis of the deposited data

Results flagged for a closer look

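Within each label the highest column of a member stood away from all others, by Dixon's criterion at 95%, in 10 of 18 groups of columns, and never the lowest column. Chance flags about 1 in 20 groups of normally distributed values, whereas CPM values are skewed and the Olfr2+ columns hold 2 depth sets. Over all genes with a mean of at least 10 CPM, the highest column stood away in 34.8% of 17492 such groups and the lowest in 0.177%; over genes of at least 1 CPM the shares were 38.7 and 0.261%. Among mature B cell genes these were Cd79a in Olfr2+ column 3A at 46.2 CPM (next highest 20.7), Cd79b in Olfr2- column 3B at 40.9 CPM (next 8.59), Cd79b in Olfr2+ column 2A at 229 CPM (next 23.1) and Pax5 in Olfr2- column 4B at 454 CPM (next 6.99). Cd22 stood out in Olfr2- column 1A at 97.0 CPM (next 7.44) and in Olfr2+ column 3D at 16.1 CPM (next 7.26). Among plasma cell genes Mzb1 stood out in Olfr2+ column 4A at 226 CPM (next 27.7), Xbp1 in Olfr2- column 4B at 1311 CPM (next 581), Sdc1 in Olfr2- column 3A at 48.4 CPM (next 8.46) and Sdc1 in Olfr2+ column 3B at 279 CPM (next 98.7). Jchain and Ms4a1 had no such column in either label.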

How the results depend on the processing

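Over all columns 0 members were called under any setting that gave them an adjusted p (0 to 0 when samples were left out in turn). DESeq2 gave 5 of the 9 an adjusted p and the 10 CPM filter 8. Directions were unstable. With limma-voom Ms4a1 was at -0.55 and Mzb1 at -2.37. On column totals Mzb1 was at -0.41 and Xbp1 at -0.77, and among genes averaging 10 CPM or more they were at -0.58 and -1.17. Mzb1 was at -0.53 with the 8 file-style names of the descriptions as samples and at -0.94 with columns as samples, where Xbp1 was at -0.15. In columns below 60 M counts Jchain was at 0.41 and Xbp1 at -0.11, and with the depth set as covariate they were at 0.32 and -0.65. With the replicate block Cd79b was at -0.18, Pax5 at 1.06, Cd22 at 0.43 and Mzb1 at -0.41, and 2 of all genes were called. The numbers are shared by 2 pairs of samples only. Leaving out samples turned Pax5 to 2.98 (Olfr2- 4), Cd79b to -0.028 and Jchain to 0.12 (Olfr2+ 2), Jchain to 0.03 (Olfr2+ 3) and Mzb1 to -3.28 (Olfr2+ 4). The ranges over samples left out were -1.85 to 2.98 for Pax5, -0.028 to 4.87 for Cd79b, -3.64 to 0.12 for Jchain and -3.28 to 1.05 for Mzb1.

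In columns below 60 M counts DESeq2 called 1 member, Ms4a1 at 3.40, and had Xbp1 at 0.044, while leaving out samples gave 0 to 0. With limma-voom Pax5 was at 1.82 and Sdc1 at -0.55. On column totals Cd79a was at -0.0022, Jchain at -0.43 and Sdc1 at -0.068. With the replicate block, added after seeing the data, Pax5 was at 1.11, Cd22 at 1.16 and Sdc1 at -0.71. Without Olfr2- 1 Cd22 was at 1.63, without Olfr2- 4 Pax5 at 3.57 and Xbp1 at 0.17, and without Olfr2+ 3 Xbp1 at 0.04. Without Olfr2+ 4, with 1 Olfr2+ sample assumed to vary like the others, Cd79a was at -0.32, Jchain at -0.65, Mzb1 at -0.53 and Sdc1 at -3.56. The highest or lowest values at the other end were 1.32 for Cd79a, -0.91 for Pax5, -2.98 for Cd22, 1.03 for Jchain, 1.94 for Mzb1, -0.35 for Xbp1 and 2.10 for Sdc1.

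Between the Olfr2+ column sets, a comparison added after seeing the data, the 3 calls were 1 to 2 when samples were left out, 1 without Olfr2+ 3 and 1 without Olfr2+ 4. Jchain was called under each alternative, without Olfr2+ 4 with 1 shallower column assumed to vary like the others, and limma-voom left Mzb1 at an adjusted p of 0.0587. Cd79b turned to -3.75 with DESeq2, -2.93 with limma-voom and -5.89 without Olfr2+ 2, Cd79a to -0.24 with limma-voom, and Sdc1 to -0.19 without Olfr2+ 3. At the other end of the samples left out were 4.63 for Cd79b and 7.23 for Sdc1. Summed B cell members in Olfr2+ were 120 CPM with TMM and 83.5 on totals, and summed plasma cell members in Olfr2- were 3558 and 5308. The cause of these changes was not tested.

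Counts of all genes called depended on the setting. Over all columns 385 became 6457 with DESeq2, 0 with limma-voom, 881 without a filter, 0 at 10 CPM, 1568 by file-style names, 893 by columns, 0 with the depth covariate and 6 to 1086 without 1 sample. Below 60 M counts 0 became 1199 with DESeq2, 196 without a filter and 10 with the block. Between column sets 1223 became 3918 with DESeq2, 213 with limma-voom, 3023 on totals, 2455 without a filter and 182 to 2370 without 1 sample.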
